A study of Mus musculus with 8 samples.

Results

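The 10 genes described here encode ubiquitin ligase components of striated muscle: Asb2, Asb10, Asb11, Asb14, Asb15 and Asb18 of the ASB family, Fbxo32 (atrogin-1), and Trim63, Trim55 and Trim54 (MuRF1, MuRF2 and MuRF3). They were listed by symbol, with their levels after myocardial infarction (MI) already known, and are 10 of 24062 genes in the count tables. All 10 passed the filter on low counts, as did 15508 genes in all. Because the choice rested on the difference between MI and sham surgery, that difference is given for these genes as a description without a test. Tissue came from the left ventricular free wall of male C57BL/6 mice aged 8 to 12 weeks, and total RNA was sequenced after rRNA depletion. The groups were MI at 1 day, sham surgery at 1 day, MI at 3 days and sham surgery at 3 days, with 2 mice each. In MI mice the left anterior descending artery was tied off and the ischemic tissue was collected, whereas in sham mice the artery was not tied. Both days had their own sham mice, and no genotype or drug differed between groups. Letters A and B name the libraries within a group by column order, since the count columns carry no replicate number.

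Ubiquitin ligases choose the proteins that receive ubiquitin and so are sent to the proteasome or to other fates. An ASB protein binds its substrate through ankyrin repeats and, through its SOCS box, joins elongins B and C and a cullin scaffold, usually Cullin5. Atrogin-1 is an F-box protein that joins Skp1 and Cullin1, whereas the MuRF proteins are RING-finger ligases of the TRIM family that sit on the sarcomere. In wasting skeletal muscle Fbxo32 and Trim63 are the classic genes that go up, and in the heart MuRF1 and MuRF3 are known for the turnover of contractile proteins.

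The libraries held, in units of 1000000 gene counts, 12.66 and 7.382 (MI, 1 day), 20.68 and 20.12 (sham, 1 day), 21.06 and 25.04 (MI, 3 days) and 18.83 and 19.85 (sham, 3 days). Levels are given in CPM, the counts of a gene scaled to 1000000 per library, and 3 counts correspond to 0.102 to 0.369 CPM at the effective library sizes. MI library B at 1 day was the shallowest and had reads in 94.1% of the genes, against 69.5 to 81% in the other 7 libraries, so values of that group are also given without each of its libraries. Markers of the labelled tissue were present in every library. Markers of skeletal muscle (13 genes, none at 0 in all libraries) summed to 365 and 247 CPM after MI against 464 and 408 CPM after sham surgery at 1 day, and to 60.3 and 64.1 against 198 and 253 CPM at 3 days. Most of this was Acta1, which the heart also expresses, but MI library B of 1 day had 6.40, 6.64 and 6.40 CPM of Myh1, Myh2 and Myh4, against at most 0.575 CPM in any other library. Atrial markers (5 genes, none at 0 in all libraries) summed to 375 and 682 CPM after MI against 437 and 468 CPM after sham surgery at 1 day, and to 498 and 517 against 153 and 193 CPM at 3 days. Most of this was Nppa, with 495 and 515 CPM in MI libraries against 144 and 187 CPM in sham libraries at 3 days. By contrast, Myl7, Myl4 and Sln averaged 0.263, 2.31 and 0.041 CPM after MI at 3 days, against 1.44, 4.96 and 0.987 CPM after sham surgery. At 1 day Myl7 had 0.162 CPM in MI library A and 32.6 CPM in MI library B. The marker sums moved with MI; their part in the results below was not tested. Cardiomyocyte markers summed to 126000 and 129000 CPM after MI against 235000 and 208000 after sham surgery at 1 day, and to 11500 in both MI libraries against 149000 and 212000 CPM in sham libraries at 3 days. Neutrophil markers (8 genes) summed to 1980 and 983 CPM after MI against 201 and 146 CPM after sham surgery at 1 day, and macrophage markers (9 genes) to 7450 and 7100 against 1550 and 799 CPM at 3 days. In such bulk tissue, fewer cardiomyocytes and less RNA per cardiomyocyte cannot be told apart.

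All 10 genes were lower after MI at both days, and MI and sham libraries did not overlap for any of them. Of all genes tested, 32.6% at 1 day and 35.1% at 3 days had both MI libraries below both sham libraries. By the quasi-likelihood test of edgeR with Benjamini-Hochberg adjustment over all genes, 9 of the 10 were called lower at 1 day and 10 of 10 at 3 days, where 19.7% and 23.7% of all genes were called lower (19.3% and 31.7% were called higher); as the genes were chosen on this contrast, nothing is read from these counts. The median log2 fold change of the 10 genes was -1.56 at 1 day and -4.50 at 3 days, beside 0.12 and 0.16 over all genes tested. What the list does show is its spread: at 1 day the genes ran from an 11.1-fold lower level (Asb2) to a 1.45-fold lower level (Trim55). The 6 ASB genes had a median log2 fold change of -2.42 at 1 day, and the 3 MuRF genes one of -0.87. At 3 days the median was -5.01 for the ASB genes and -3.51 for the MuRF genes.

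**Figure D1:**
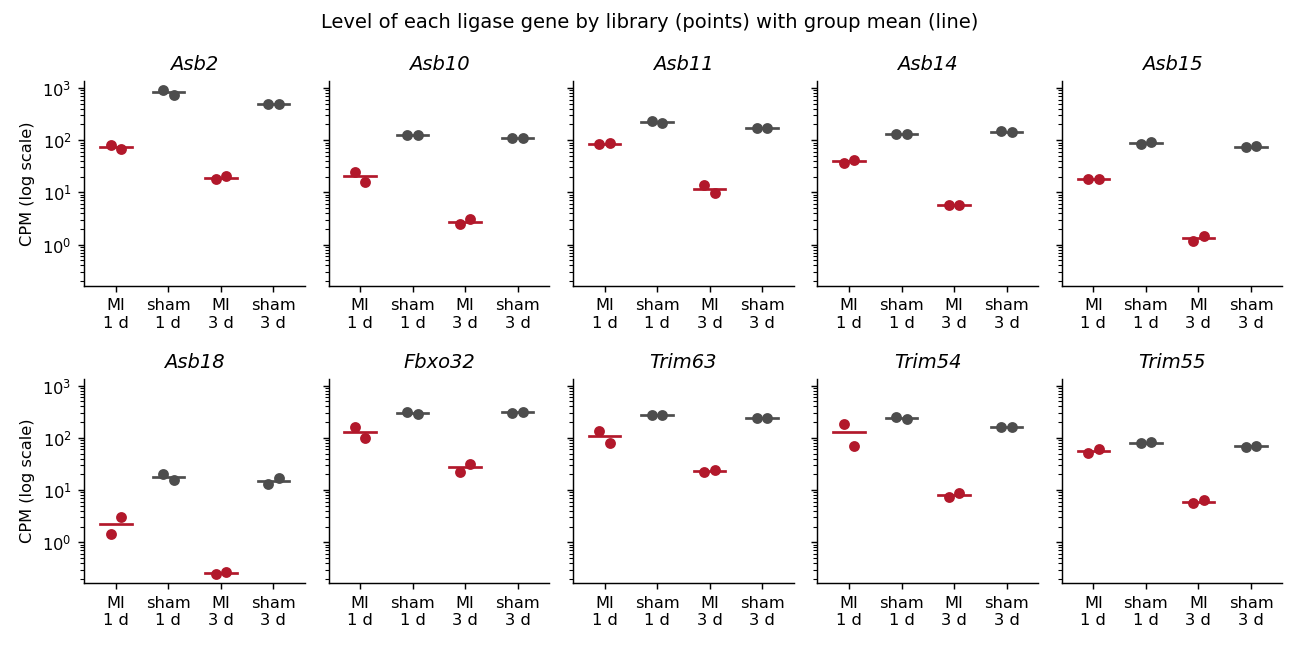
CPM of each of the 10 genes in each library (points, log axis) with the mean of each group of 2 mice (line), for MI (red) and sham surgery (grey) at 1 and 3 days. For every gene the MI points lie below the sham points of the same day, and they lie lower at 3 days than at 1 day.

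Asb2, the substrate receptor of a Cullin5 ligase that sends filamins to the proteasome, had the largest difference of the 10 genes at 1 day. Without MI library B, Asb18 had the larger one (log2 fold change -3.62, against -3.36 for Asb2). Asb2 is on chromosome 12, 103321142 to 103356001 (minus strand, GRCm38.p6, ENSMUSG00000021200). Its level was 80.2 and 68.6 CPM in MI libraries, against 901 and 748 CPM in sham libraries at 1 day. At 3 days it was 18 and 20.2 CPM in MI libraries, against 491 and 496 CPM in sham libraries. The log2 fold change was -3.47 (SE 0.19) at 1 day and -4.69 (SE 0.20) at 3 days. On the log2 scale, 73.9% of the 3-day difference was thus present at 1 day, which was the largest share among the 10 genes; for the others it ran from 15.4% (Trim55) to 52.8% (Asb18).

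The ankyrin repeat gene Asb10 (chromosome 5, 24532697 to 24540978, ENSMUSG00000038204) had 25 and 15.9 CPM in MI libraries, against 126 and 123 CPM in sham libraries at 1 day. By 3 days it had 2.46 and 3.03 CPM in MI libraries, against 110 and 112 CPM in sham libraries. Its log2 fold change was -2.59 (SE 0.23) at 1 day and -5.33 (SE 0.26) at 3 days, so that both MI groups lay far below a sham level that hardly differed between the days. Asb15 (chromosome 6, 24528144 to 24573164, ENSMUSG00000029685), which has been tied to muscle growth, had 17.9 and 18.3 CPM in MI libraries, against 82.9 and 90.4 CPM in sham libraries at 1 day. At 3 days its MI libraries had 1.19 and 1.46 CPM, against 73.3 and 76.5 CPM in sham libraries. The 2 libraries of each group lay close together, and the log2 fold change was -2.26 (SE 0.18) at 1 day and -5.80 (SE 0.23) at 3 days.

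Asb18 (chromosome 1, 89952591 to 90014666, ENSMUSG00000067081) was the least abundant of the genes. It had 1.46 and 3.08 CPM in MI libraries, against 20.7 and 15.4 CPM in sham libraries at 1 day, and 0.246 and 0.272 CPM in MI libraries, against 13 and 17.4 CPM in sham libraries at 3 days. The log2 fold change was -3.08 (SE 0.38) at 1 day and -5.83 (SE 0.45) at 3 days, where the MI libraries had 6 and 8 reads. The remaining ASB genes were lower by less at 1 day. Asb14 (chromosome 14, 26894590 to 26915257, ENSMUSG00000021898) had 37.2 and 41.7 CPM in MI libraries, against 130 and 134 CPM in sham libraries at 1 day. The 3-day groups had 5.66 and 5.69 CPM in MI libraries, against 148 and 145 CPM in sham libraries, the log2 fold changes being -1.75 (SE 0.16) and -4.69 (SE 0.19). Asb11 (chromosome X, 164436953 to 164459170, ENSMUSG00000031382), whose zebrafish counterpart acts on Notch ligand in muscle and neural progenitors, was the ASB gene with the smallest difference. It had 83.1 and 89.4 CPM in MI libraries, against 230 and 214 CPM in sham libraries at 1 day, and 13.6 and 9.87 CPM in MI libraries, against 170 and 174 CPM in sham libraries at 3 days. Its log2 fold change was -1.37 (SE 0.18) at 1 day and -3.88 (SE 0.20) at 3 days.

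Fbxo32, the atrogin-1 gene (chromosome 15, 58175879 to 58214892, ENSMUSG00000022358) had 162 and 98.7 CPM in MI libraries, against 315 and 282 CPM in sham libraries at 1 day. In the 3-day groups it had 22.4 and 32 CPM in MI libraries, against 304 and 315 CPM in sham libraries. The log2 fold change was -1.19 (SE 0.25) at 1 day and -3.51 (SE 0.27) at 3 days. Trim63 (chromosome 4, 134315120 to 134329629, ENSMUSG00000028834), whose product MuRF1 marks myosin and other thick filament proteins, had 138 and 81.4 CPM in MI libraries, against 279 and 276 CPM in sham libraries at 1 day. At 3 days it had 22.6 and 24.5 CPM in MI libraries, against 242 and 245 CPM in sham libraries, and the log2 fold changes were -1.33 (SE 0.23) and -3.37 (SE 0.25). Neither of these genes, the best known to go up in wasting muscle, had an MI library above a sham library at either day.

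Trim54 (chromosome 5, 31116612 to 31137626, ENSMUSG00000062077), whose product MuRF3 binds microtubules and the Z-disc, had the widest gap between MI mice. It had 185 and 71.2 CPM in MI libraries, against 247 and 226 CPM in sham libraries at 1 day, and was the gene not called at that day. At 3 days it had 7.38 and 8.72 CPM in MI libraries, against 159 and 162 CPM in sham libraries. Its log2 fold change was -0.87 (SE 0.34) at 1 day and -4.31 (SE 0.40) at 3 days. Trim55 (chromosome 3, 19644344 to 19692584, ENSMUSG00000060913), which encodes MuRF2, a partner of titin and microtubules, was nearest to the sham level at 1 day. It had 51.8 and 60 CPM in MI libraries, against 79.7 and 82.4 CPM in sham libraries at 1 day, and 5.58 and 6.40 CPM in MI libraries, against 66 and 71.3 CPM in sham libraries at 3 days. The log2 fold change was -0.54 (SE 0.17) at 1 day and -3.51 (SE 0.20) at 3 days.

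Between the MI groups, all 10 genes were lower at 3 days than at 1 day, from a 3.9-fold lower level of Asb2 (log2 fold change -1.96, SE 0.18) to a 16-fold lower level of Trim54. The MI effect at 3 days minus that at 1 day ran from -1.22 (SE 0.25) for Asb2 to -3.54 (SE 0.29) for Asb15. These contrasts share libraries with those above and were also known when the genes were listed; 22% of all genes were called lower between the MI groups and 11.3% in the difference, and all 10 genes were called in each. The 1-day values moved with the MI library that was left out. Without MI library A the log2 fold change at 1 day became -1.82 for Trim54, -1.86 for Trim63 and -1.69 for Fbxo32, and without MI library B it became -0.35, -1.01 and -0.88. For Asb2 it was -3.68 without MI library A and -3.36 without MI library B, and for Trim55 -0.53 and -0.65. Asb18 had -2.65 without MI library A and -3.62 without MI library B, and Asb10 had -3.07 and -2.32. Between the MI groups, the log2 fold change without MI library A of 1 day was -3.22 for Trim54 (-4 with it) and -3.60 for Asb18 (-3 with it). In the difference between the days it was -2.71 for Trim54 (-3.44 with it) and -3.40 for Asb18 (-2.75 with it). The medians without MI library A were -2.49 for the ASB genes and -1.82 for the MuRF genes, and without MI library B -2.29 and -0.65. In the authors' deposited table for 1 day, log2 fold changes of MI over sham ran from -3.43 (Asb2) to -0.58 (Trim55), and in the authors' deposited table for 3 days, where the sign is sham over MI, they ran from 3.53 (Trim63) to 5.93 (Asb15).

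The comparison that did not enter the choice of the genes is sham at 3 days against sham at 1 day, which asks whether the genes move with time after surgery without an infarct. None of the 10 passed the edgeR quasi-likelihood test, with Benjamini-Hochberg adjusted p from 0.631 to 0.963; 0 of 15508 genes passed in all (0% called; 1211 genes had an unadjusted p below 0.05; DESeq2 called 44 and limma-voom 0). Asb2 had the largest difference, with 491 and 496 CPM at 3 days against 901 and 748 CPM at 1 day after sham surgery. The log2 fold change of Asb2 was -0.74 (SE 0.17, edgeR adjusted p = 0.631), whereas DESeq2 called Asb2 with an adjusted p of 0.0201. It was the 1 gene of the 10 with an unadjusted p below 0.05. The same sham groups differed in atrial markers: Myl7 averaged 1.44 CPM at 3 days against 27.3 CPM at 1 day, Myl4 4.96 against 44.8 CPM, Sln 0.987 against 4.97 CPM and Nppa 165 against 376 CPM. Of the 4 atrial markers tested none was called (edgeR adjusted p = 0.631 each), and their part in the Asb2 difference was not tested. For the other genes the log2 difference ran from -0.56 (SE 0.34) for Trim54 to 0.15 (SE 0.15) for Asb14.

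The ligase genes were then set beside the cardiomyocytes' own RNA. Of the 18 cardiomyocyte markers, 17 fell at 1 day and 18 at 3 days (edgeR, adjusted p under 0.05). Their log2 fold changes at 1 day ran from -1.87 (Mybpc3) to -0.26 (Ttn), with a median of -1.06. Asb2, Asb10, Asb15 and Asb18 lay below every one of these markers at 1 day, whereas Asb11, Asb14, Fbxo32 and the 3 MuRF genes lay within their range. Without MI library A, 3 of the 10 genes lay below every marker, and without MI library B, 5 did. At 3 days the markers had a median of -4.03, and Asb10, Asb15 and Asb18 lay below all 18.

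**Figure D2:**
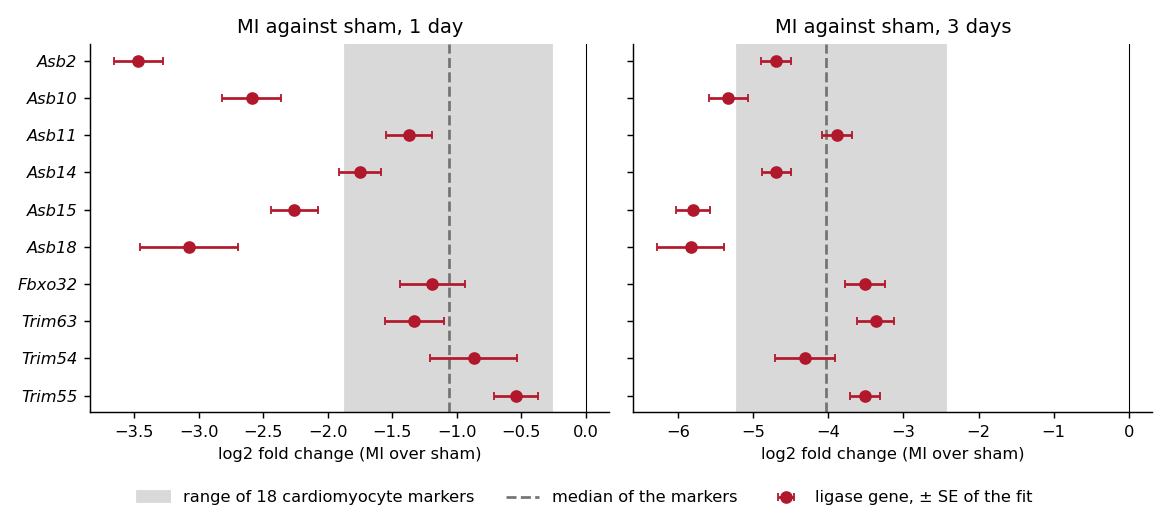
Log2 fold change of MI over sham with the SE of the fit for each gene at 1 day (left) and 3 days (right). The grey band spans the 18 cardiomyocyte markers and the dashed line is their median (-1.06 at 1 day and -4.03 at 3 days); Asb2, Asb10, Asb15 and Asb18 lie outside the band at 1 day.

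The same comparison can be made within each library, per 1000 counts of the 18 markers. Asb2 had 0.636 and 0.531 counts per 1000 marker counts in MI libraries, against 3.83 and 3.59 in sham libraries at 1 day, and 1.57 and 1.75 against 3.28 and 2.33 at 3 days. MI minus sham in this log2 ratio was -2.67 at 1 day and -0.74 at 3 days for Asb2. Its shortfall relative to the markers was thus larger at 1 day than at 3 days, a difference that was not tested. At 1 and 3 days the value was -1.85 and -1.39 for Asb10 and -0.95 and -0.73 for Asb14. It was -1.46 and -1.87 for Asb15 and -2.28 and -1.91 for Asb18. Trim55 was higher in MI by this measure. It had 0.411 and 0.464 counts per 1000 marker counts in MI libraries, against 0.339 and 0.396 in sham libraries at 1 day, and 0.486 and 0.557 against 0.442 and 0.335 at 3 days. Trim63 had 1.09 and 0.630 in MI libraries against 1.19 and 1.33 in sham libraries at 1 day, but 1.97 and 2.13 against 1.62 and 1.15 at 3 days, where both MI libraries lay above both sham libraries. The groups overlapped for Asb11 and Fbxo32 at 3 days and for Trim54 at 1 day. The share of all genes whose groups separate by this measure was not computed, so nothing is read from these separations. Titin supplied 32.2 to 60.3% of the marker counts of a library; with Ttn left out of the markers the 1-day difference was -2.23 for Asb2, -1.84 for Asb18, -1.41 for Asb10 and -1.02 for Asb15, 0.00 for Fbxo32 and 0.70 for Trim55.

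**Figure D3:**
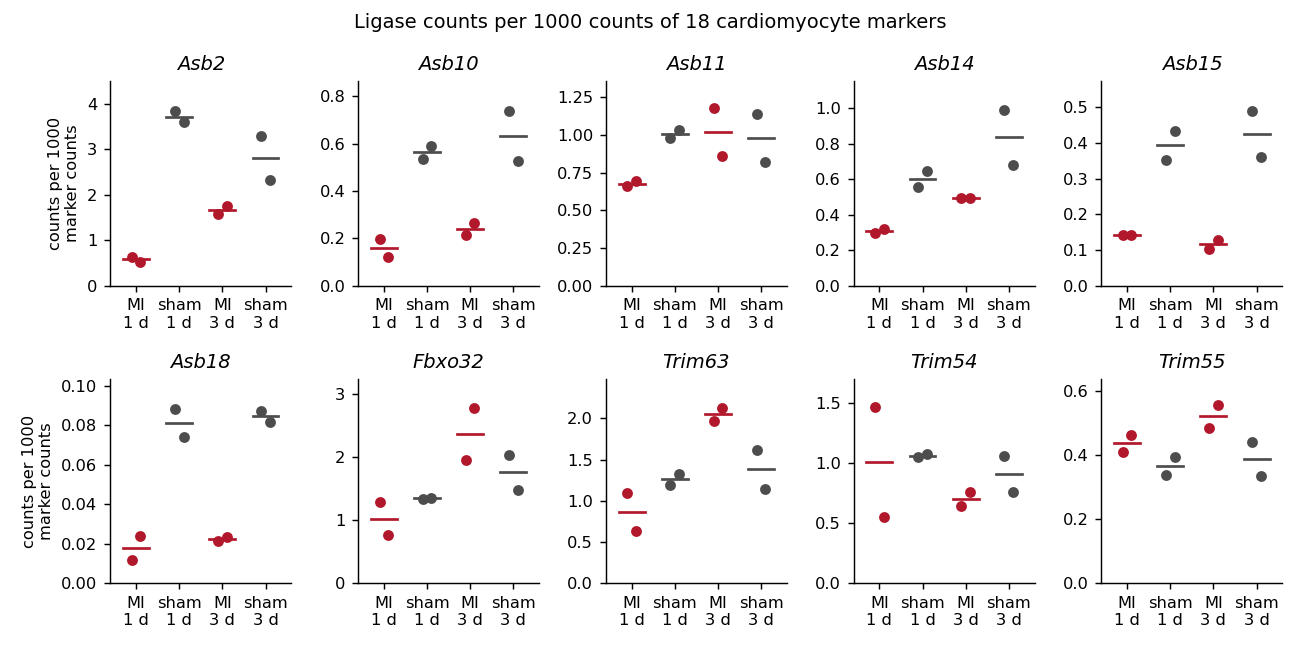
Counts of each gene per 1000 counts of the 18 cardiomyocyte markers in each library (points) with the group mean (line), MI in red and sham in grey, each panel on its own linear axis from 0. Asb2, Asb10, Asb14, Asb15 and Asb18 are lower in MI at both days, while Trim55 is higher in MI at both days.

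Per length, the genes changed their order after MI. In sham hearts at 1 day Asb2 was the most abundant at 306 ± 40.3 CPM per kilobase of longest transcript (SD, n = 2), followed by Trim54 at 165 ± 10.8, Trim63 at 147 ± 1.18 and Asb11 at 131 ± 6.38. The lowest were Asb15 at 19.8 ± 1.20 and Asb18 at 4.68 ± 0.978. In MI hearts at 1 day Trim54 came first at 89.4 ± 56.3 CPM per kilobase, then Trim63 at 58.1 ± 21.1 and Asb11 at 50.8 ± 2.64, whose libraries overlapped with their neighbours. Asb2 was in place 4 there, at 27.7 ± 3.03 CPM per kilobase. In MI hearts at 3 days Trim63 led at 12.5 ± 0.694 CPM per kilobase, and Asb2 at 7.10 ± 0.557 overlapped with Asb11 at 6.90 ± 1.54. In sham hearts at 3 days Asb2 again led at 183 ± 1.28 CPM per kilobase, before Trim63 at 129 ± 0.928.

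The deposited transcript tables separated the 4 Asb2 transcripts by their start. In the sham hearts most uniquely assigned reads belonged to a transcript that starts at the upstream end of the gene (ENSMUST00000021617, 10 exons, start at base 103356001). A second transcript (ENSMUST00000149431, 8 exons) starts 17628 bases further in, at base 103338373. The windows from 250 bases before to 50 after the 2 RefSeq start sites are shown because they are the annotated starts of these transcripts; capitals mark a CArG box, the sequence bound by serum response factor, which the upstream window holds from 64 bases before the start and the internal window lacks.
Asb2 upstream start, chr12:103355952-103356251, minus strand: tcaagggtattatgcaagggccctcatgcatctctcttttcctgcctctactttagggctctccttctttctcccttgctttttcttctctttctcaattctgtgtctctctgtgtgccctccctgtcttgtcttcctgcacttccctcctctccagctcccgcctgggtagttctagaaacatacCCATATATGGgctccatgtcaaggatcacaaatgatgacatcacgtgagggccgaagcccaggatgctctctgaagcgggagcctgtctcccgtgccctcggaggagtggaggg
Asb2 internal start, chr12:103338341-103338640, minus strand: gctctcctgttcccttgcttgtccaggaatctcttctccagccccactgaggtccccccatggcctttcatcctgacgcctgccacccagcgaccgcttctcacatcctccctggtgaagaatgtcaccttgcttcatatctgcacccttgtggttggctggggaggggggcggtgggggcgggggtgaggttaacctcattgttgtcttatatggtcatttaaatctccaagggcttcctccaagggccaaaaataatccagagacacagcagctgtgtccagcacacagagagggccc
The RefSeq start of the internal window lies 17 bases from the start of the deposited transcript. A CArG box occurs in 1.63% of the 32851 RefSeq promoter windows of this length and in 1 of the 9 windows found for these genes.

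The upstream-start transcript had 36 and 25 unique reads in MI libraries, against 1271 and 1077 in sham libraries at 1 day, and 18 and 30 against 745 and 695 at 3 days. The internal-start transcript had 35 and 25 unique reads in MI libraries, against 138 and 190 in sham libraries at 1 day, and 14 and 8 against 104 and 101 at 3 days. Both were lower after MI, but not alike. Scaled to all unique reads of a library, the upstream-start transcript was 34.8-fold lower and the internal-start transcript 4.92-fold lower at 1 day. At 3 days they were 32.2-fold and 10-fold lower. A further transcript (ENSMUST00000127447, 6 exons) starts still further in, at base 103335584. It had 4 and 6 unique reads in MI libraries, against 14 and 5 in sham libraries at 1 day. At 3 days it had 1 and 1, against 9 and 12. From these few reads it was 1.79-fold lower at 1 day and 11.4-fold lower at 3 days on the same scale.

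As a share of all unique Asb2 reads (75 and 56 reads in MI libraries, against 1423 and 1273 in sham libraries at 1 day, and 33 and 39 against 858 and 808 at 3 days), the internal-start transcript took 46.7% (95% exact binomial interval 35.1 to 58.6) and 44.6% (31.3 to 58.5) in MI libraries A and B, against 9.70% (8.21 to 11.4) and 14.9% (13 to 17) in sham libraries at 1 day. At 3 days it took 42.4% (25.5 to 60.8) and 20.5% (9.30 to 36.5) in MI libraries, against 12.1% (10 to 14.5) and 12.5% (10.3 to 15) in sham libraries. The intervals cover counting error only. At 1 day the intervals of MI and sham libraries do not touch for this transcript. At 3 days MI library B cannot be distinguished from the sham libraries at this depth. The 6-exon transcript also took a larger share after MI at 1 day, with 5.33% (1.47 to 13.1) and 10.7% (4.03 to 21.9). Its sham libraries had 0.984% (0.539 to 1.65) and 0.393% (0.128 to 0.914), and the MI and sham intervals overlap in part. The higher share at 1 day was thus not confined to the internal-start transcript. In the test of transcript usage across 3475 genes (edgeR diffSpliceDGE), Asb2 was called at 1 day and not at 3 days; 18.5% and 7.54% of all genes were called, and because this contrast chose the gene, no p is given. Of the 6 genes with enough unique reads in more than 1 transcript, only Asb2 was called. Relative to the gene, its log2 change at 1 day was 2.40 for the 6-exon transcript and 1.33 for the internal-start transcript. For the upstream-start transcript it was -0.63. Between the sham groups, a contrast the choice did not use, none of the 6 was called (adjusted p from 0.419 to 0.977; 0% of 3475 genes called, 309 with an unadjusted p below 0.05, among them Asb11). In the difference between the days 2.1% of genes were called and none of the 6. The share of genes with any read was 78.8% in MI library A and 94.1% in MI library B at 1 day, against 70% in sham library A and 81% in sham library B (letters of the count table, whose match to the transcript table is not given for the sham libraries of 1 day), and the internal first exon lies within an intron of the upstream-start transcript; the part of unspliced reads in the internal-start count was not tested.

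**Figure D4:**
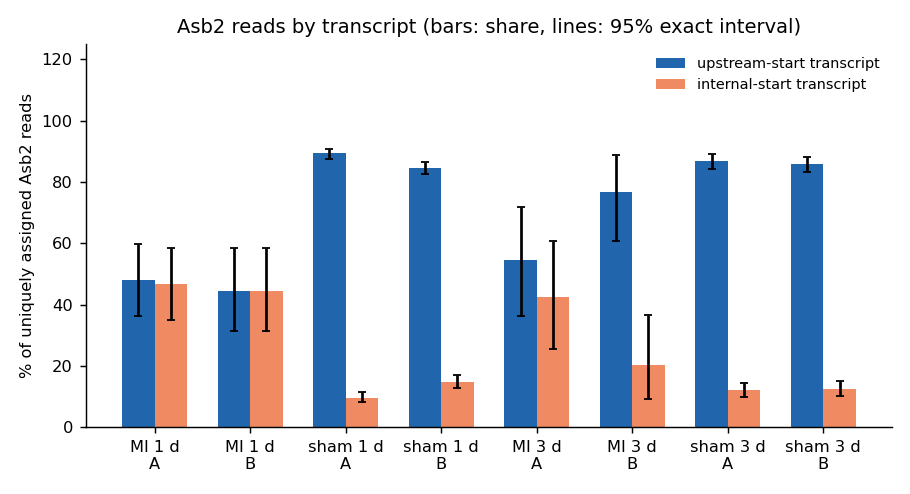
Share of uniquely assigned Asb2 reads that belong to the upstream-start and the internal-start transcript in each library, with 95% exact binomial intervals (counting error only). At 1 day the internal-start share is 46.7 and 44.6% in MI libraries and 9.70 and 14.9% in sham libraries.

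The promoter windows of 8 of the 10 genes were in the RefSeq table (GRCm38.p6), not those of Fbxo32 and Trim55. They were searched on both strands for the letters GTAAACA (a FOXO site), CATTCC (M-CAT, read by TEAD factors), CANNTG (E-box), and the MEF2 and CArG consensus sequences, with overlaps allowed. All 9 windows held an E-box, as did 72.3% of all windows. M-CAT was in 3 of 9 (Asb10, Trim54 and Trim63) and in 14.7% of all windows. A FOXO site was in the windows of Asb18 and Trim63 (3.65% of all windows), and a MEF2 match in those of Asb14 and Asb18 (3.19% of all windows). These 3 windows are shown with the FOXO and MEF2 matches in capitals, since FOXO factors are the known activators of Trim63 in wasting muscle and MEF2 factors act on many muscle genes; a match is a description of letters and not a bound site.
Trim63, chr4:134314870-134315169, plus strand: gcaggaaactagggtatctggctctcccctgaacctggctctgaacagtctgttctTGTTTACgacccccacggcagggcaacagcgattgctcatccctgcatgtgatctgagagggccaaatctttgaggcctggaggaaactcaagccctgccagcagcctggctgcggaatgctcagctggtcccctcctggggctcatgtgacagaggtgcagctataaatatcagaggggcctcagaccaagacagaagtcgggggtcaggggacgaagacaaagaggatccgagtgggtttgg
Asb18, chr1:90014617-90014916, minus strand: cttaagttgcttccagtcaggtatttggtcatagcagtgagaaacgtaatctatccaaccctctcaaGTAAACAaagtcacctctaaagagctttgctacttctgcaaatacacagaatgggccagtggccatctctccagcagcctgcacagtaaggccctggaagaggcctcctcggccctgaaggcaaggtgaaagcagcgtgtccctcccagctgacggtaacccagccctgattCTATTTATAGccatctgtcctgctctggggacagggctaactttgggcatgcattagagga
Asb14, chr14:26894364-26894663, plus strand: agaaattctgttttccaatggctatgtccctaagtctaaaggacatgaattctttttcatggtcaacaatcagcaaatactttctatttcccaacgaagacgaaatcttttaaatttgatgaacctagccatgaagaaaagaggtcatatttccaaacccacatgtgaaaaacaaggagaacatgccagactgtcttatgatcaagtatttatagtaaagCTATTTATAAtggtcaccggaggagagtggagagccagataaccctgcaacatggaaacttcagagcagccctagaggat
Counted from the RefSeq start of each window, the match begins 194 bases upstream in Trim63 and 30 bases upstream in Asb14. In Asb18 a FOXO match lies 183 bases and a MEF2 match 11 bases upstream of base 90014666. Most unique Asb18 reads (89.3 and 88% in sham libraries at 1 day) belonged to a transcript that starts at base 90014577, outside this window. Most unique Asb10 reads (88.9 and 91.5% there) belonged to a transcript that starts at base 24540457, outside the Asb10 window.

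The other genes of the system, from lists of the pathway, did not share one course. All tests named from here on are edgeR's quasi-likelihood test with adjustment over all genes. Of all genes, 19.3% were called higher and 19.7% lower at 1 day, and 31.7% and 23.7% at 3 days. Of 12 other ASB genes 10 were tested; 1 rose and 1 fell at 1 day, and 1 rose and 6 fell at 3 days. Their median was -0.28 (log2 fold change) at 1 day and -1.05 at 3 days, and the 1-day median turned to 0.01 when libraries were scaled by their totals alone. Asb8, the most abundant of them, had 81.5 and 82.9 CPM in MI libraries, against 117 and 112 CPM in sham libraries at 1 day, and 21.9 and 26.1 CPM against 88.4 and 88.9 CPM at 3 days. On the log2 scale Asb8 changed by -0.48 (SE 0.16, adjusted p = 0.0426) at 1 day, a call lost with library totals (adjusted p = 0.405) and without either sham library of 1 day or either MI library of 3 days (0.077 to 0.17), and -1.89 (SE 0.17, adjusted p = 1.46e-05) at 3 days. Asb12 was the gene of this list with the largest fall at 3 days among those averaging at least 5 CPM (log2, -3.23, SE 0.45, adjusted p = 0.000212), with 1.48 and 0.511 CPM in MI libraries, against 10.6 and 7.44 CPM in sham libraries; without MI library A of that day it was -4.34. Asb4 rose at 1 day (log2 fold change 1.10, SE 0.33, adjusted p = 0.0262; lost without 5 of the 8 libraries in turn, 0.56 and adjusted p = 0.219 without MI library A), and Asb3 rose at 3 days (0.83, SE 0.21, adjusted p = 0.00745; lost without MI library A or B of that day, adjusted p = 0.169 and 0.0828). Asb5, another muscle ASB gene, singled out after its values were seen, had 34.4 and 24.1 CPM in MI libraries, against 20 and 25.9 CPM in sham libraries at 1 day, and its log2 fold changes were 0.36 (SE 0.25, adjusted p = 0.274) and 0.18 (SE 0.24, adjusted p = 0.548).

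The scaffolds on which ASB and F-box proteins work changed less by median than the 10 ligase genes. The ligase genes were chosen with their MI values known, so nothing is read from this gap. The list held 20 genes for cullins, elongins, RING partners and the neddylation cycle that activates cullins. At 1 day 2 rose and 4 fell, where 19.3% of all genes were called higher and 19.7% lower. At 3 days 6 rose and 3 fell, where the shares were 31.7% and 23.7%. These counts lie near or below the shares over all genes, so nothing is read from them. The median log2 fold change was -0.13 at 1 day (0.16 when scaled by library totals) and 0.07 at 3 days. Skp1a, the linker of F-box proteins and the most abundant, had 190 and 232 CPM in MI libraries, against 238 and 263 CPM in sham libraries at 1 day (log2 fold change -0.25, SE 0.18, adjusted p = 0.285). Cul5, the scaffold of ASB ligases, singled out for that role after its values were seen, had 132 and 133 CPM in MI libraries, against 146 and 172 CPM in sham libraries at 1 day, and 109 and 115 CPM against 155 and 142 CPM at 3 days. The Cul5 value was -0.26 (log2; SE 0.16, adjusted p = 0.220) at 1 day and -0.41 (SE 0.16, adjusted p = 0.0547) at 3 days. DESeq2 (adjusted p = 0.0062) and limma-voom (0.0421) called the 3-day value, as did edgeR without either MI library of 1 day (0.00295 and 0.0233).

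Tceb1, which encodes elongin C, the adaptor that ASB proteins need, rose at 3 days, with 114 and 103 CPM in MI libraries, against 48.6 and 38.9 CPM in sham libraries (log2 fold change 1.31, SE 0.21, adjusted p = 0.000536). Cand2, the muscle form of the factor that exchanges substrate receptors on cullins, fell. It had 38.6 and 48 CPM in MI libraries, against 134 and 120 CPM in sham libraries at 1 day, and 12.3 and 13.8 CPM against 82.3 and 82.6 CPM at 3 days. The Cand2 change was -1.56 (log2; SE 0.18, adjusted p = 0.000356) at 1 day and -2.66 (SE 0.19, adjusted p = 4.25e-06) at 3 days. Arih2, a ligase that works on Cullin5 complexes, rose at 1 day (0.80, SE 0.27, adjusted p = 0.0396), with 124 CPM in MI library A and 64.9 CPM in MI library B; without MI library A it was 0.16 (adjusted p = 0.451), and the call was lost without 7 of the 8 libraries in turn.

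Of 30 other muscle ligases and adaptors tested, 6 rose and 16 fell at 1 day, where 19.3% of all genes were called higher and 19.7% lower. At 3 days 2 rose and 19 fell, where 31.7% of all genes were called higher and 23.7% lower. The median log2 fold change of the list was -0.86 at 1 day and -1.66 at 3 days. Klhl41, a kelch adaptor of Cullin3 ligases in the sarcomere, rose at 1 day. It had 612 and 390 CPM in MI libraries, against 117 CPM in both sham libraries at 1 day, and 15.9 and 14 CPM in MI libraries, against 85.8 and 85.9 CPM in sham libraries at 3 days. On the log2 scale the change was 2.10 (SE 0.22, adjusted p = 0.000232) at 1 day and -2.52 (SE 0.23, adjusted p = 1.73e-05) at 3 days, and at 1 day it stayed between 1.65 and 2.39 under all alternatives run. Klhl40, its close relative that stabilizes thin filament proteins, was looked at for that reason after its values were seen, and had 173 and 69.6 CPM in MI libraries, against 60 and 45.5 CPM in sham libraries at 1 day. For Klhl40 it was 1.21 (SE 0.35, adjusted p = 0.0230) at 1 day and -3.13 (SE 0.42, adjusted p = 0.000159) at 3 days; without MI library A the 1-day value was 0.31 (adjusted p = 0.237), and the call was lost without 7 of the 8 libraries in turn.

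Klhl38, another kelch gene of muscle, had 1.07 and 0.511 CPM in MI libraries, against 34.3 and 40.3 CPM in sham libraries at 3 days (log2 fold change -5.59, SE 0.33, adjusted p = 1.95e-06; -6.38 without MI library A), the largest fall of the list. Fbxl22, an F-box protein of the Z-disc, had the largest fall of the list at 1 day, with 30.5 and 16.6 CPM in MI libraries, against 130 and 119 CPM in sham libraries (-2.38, SE 0.26, adjusted p = 0.000250; -3.00 without MI library A). Cblb, a RING ligase best known from lymphocytes, rose at 3 days with 54.7 and 56.9 CPM in MI libraries, against 25.3 and 37 CPM in sham libraries (0.84, SE 0.27, adjusted p = 0.0223; lost without either MI library of 3 days, MI library A of 1 day or sham library A of 3 days, adjusted p from 0.0527 to 0.273). Nedd4, a HECT ligase and the most abundant of the list, fell at 1 day, with 558 and 576 CPM in MI libraries, against 922 and 965 CPM in sham libraries (-0.73, SE 0.15, adjusted p = 0.00476; -0.44 and adjusted p = 0.0569 when scaled by library totals), and had -0.16 (SE 0.15, adjusted p = 0.405) at 3 days, where it was called without MI library A of 1 day (-0.37, adjusted p = 0.0159).

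Ubiquitin itself and the enzymes upstream of the ligases showed no common direction. Of 19 genes, 5 rose and 4 fell at 1 day, where 19.3% of all genes were called higher and 19.7% lower. At 3 days 5 rose and 6 fell, where the shares were 31.7% and 23.7%. The median log2 fold change was 0.06 at 1 day and -0.03 at 3 days. Without MI library A, 4 rose and 9 fell at 1 day and the median was -0.29. Cdc34, a conjugating enzyme that works with Cullin1 ligases, fell at 1 day, with 60 and 33.1 CPM in MI libraries, against 134 and 108 CPM in sham libraries (-1.36, SE 0.26, adjusted p = 0.00317; -1.96 without MI library A). Ube2k rose at 1 day (0.77, SE 0.17, adjusted p = 0.00617; lost without sham library A or B, 0.103 and 0.0692), and the activating enzyme gene Uba6 rose at 3 days (1.71, SE 0.29, adjusted p = 0.000776). Ube2d3, the most abundant conjugating enzyme of the list, had 501 and 447 CPM in MI libraries, against 340 and 323 CPM in sham libraries at 1 day (0.52, SE 0.16, adjusted p = 0.0280; lost without 7 of the 8 libraries in turn, 0.0678 to 0.261).

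**Figure D5:**
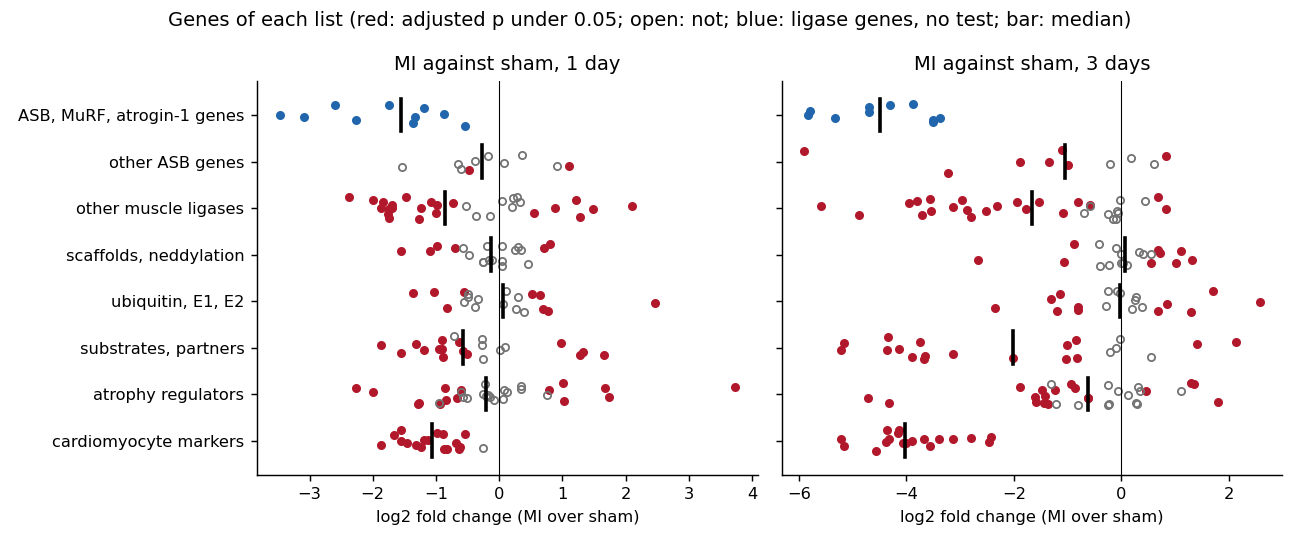
Log2 fold change of MI over sham of the tested genes of each list at 1 day (left) and 3 days (right); red points passed the test (adjusted p under 0.05), open points did not, blue points are the 10 ligase genes, for which no test is given, and black bars are medians. The 10 ligase genes, chosen on this contrast, have a median of -1.56 at 1 day, and the scaffold genes one of -0.13.

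Among 23 reported substrates and partners of these ligases, 21 were tested. At 1 day 4 rose and 11 fell, where 19.3% of all genes were called higher and 19.7% lower. At 3 days 2 rose and 15 fell, where the shares were 31.7% and 23.7%. The median log2 fold change was -0.58 at 1 day and -2.01 at 3 days. Several of these genes are also cardiomyocyte markers. The filamin genes, whose products are the known targets of ASB2, did not fall with the ligase at 1 day. Flna, the filamin of most cell types, had 973 and 836 CPM in MI libraries, against 372 and 350 CPM in sham libraries at 1 day, and 1450 and 1490 CPM against 341 and 328 CPM at 3 days. Flna rose at 1 day (1.33, SE 0.16, adjusted p = 0.000411) and at 3 days (2.13, SE 0.16, adjusted p = 5.91e-06). Fibroblast markers (7 genes) summed to 1370 and 1440 CPM in MI libraries against 1610 and 1940 CPM in sham libraries at 1 day. At 3 days they summed to 9920 and 9530 CPM in MI libraries against 3250 and 1460 CPM in sham libraries. The part of fibroblasts in the Flna rise was not tested. Flnc, the muscle filamin, had 3410 and 2510 CPM in MI libraries, against 1110 and 754 CPM in sham libraries at 1 day, and 230 and 223 CPM against 424 and 485 CPM at 3 days. It rose by 1.66 (SE 0.23, adjusted p = 0.000753) at 1 day and fell at 3 days (adjusted p = 0.00423; 0.0505 without sham library B of 3 days). These are RNA values and say nothing of filamin protein.

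Mybpc3, a thick filament protein, had 2070 and 1170 CPM in MI libraries, against 6420 and 5410 CPM in sham libraries at 1 day (log2 fold change -1.87, SE 0.26, adjusted p = 0.000748). Ckm, muscle creatine kinase and a MuRF1 partner, had the largest fall of the list at 3 days, with 41.2 and 44.4 CPM in MI libraries, against 1590 and 1610 CPM in sham libraries (-5.22, SE 0.24, adjusted p = 1.26e-06). Ttn, the giant sarcomere protein that MuRF proteins bind, had -0.26 (SE 0.34, adjusted p = 0.569) at 1 day and -4.14 (SE 0.38, adjusted p = 1.80e-05) at 3 days, where it was -3.45 without sham library B.

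Of 31 regulators of the atrophy programme and other atrophy genes, 6 rose and 9 fell at 1 day. There 19.3% of all genes were called higher and 19.7% lower. At 3 days 4 rose and 14 fell, where the shares were 31.7% and 23.7%. The median log2 fold change was -0.21 at 1 day (0.07 when scaled by library totals) and -0.62 at 3 days. Klf15, a transcription factor that can switch on Fbxo32 and Trim63 in muscle, had 31.9 and 18.7 CPM in MI libraries, against 142 and 106 CPM in sham libraries at 1 day, and 3.32 and 3.40 CPM against 78.7 and 98.7 CPM at 3 days. Klf15 fell at 1 day (-2.27, SE 0.27, adjusted p = 0.000388) and at 3 days (-4.72, SE 0.31, adjusted p = 3.04e-06). Foxo3, the FOXO gene best known from muscle wasting and named after its values were seen, fell as well (-1.29, SE 0.31, adjusted p = 0.0104 at 1 day, where it was -2.07 without MI library A and no longer called without sham library A (0.0935), and -1.44, SE 0.31, adjusted p = 0.00292 at 3 days). Foxo4 fell at 1 day (-0.84, SE 0.25, adjusted p = 0.0269), where it was -1.47 without MI library A and lost its call with library totals (0.0675) and without 4 of the 8 libraries in turn (0.0644 to 0.147), and at 3 days (-1.60, SE 0.25, adjusted p = 0.000440). Foxo1 had -0.08 (SE 0.22, adjusted p = 0.806) at 1 day and fell at 3 days (-0.61, SE 0.22, adjusted p = 0.0376), a call lost with library totals (0.179) and without 5 of the 8 libraries in turn (0.0534 to 0.262). The metallothionein gene Mt2, a member of the wasting signature, rose, with 1050 and 638 CPM in MI libraries, against 78.6 and 48.5 CPM in sham libraries at 1 day (3.73, SE 0.33, adjusted p = 0.000134). Ctsl, the lysosomal protease cathepsin L, had 0.13 (SE 0.18, adjusted p = 0.604) at 1 day and rose at 3 days (1.80, SE 0.19, adjusted p = 3.32e-05), when macrophage markers rose too (9 of 9); their part was not tested.

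Across the 8 libraries the levels of the 10 genes ran together. Pearson's r of log2 CPM over the 45 pairs of genes ran from 0.867 (Trim55 with Asb2) to 0.997 (Asb15 with Asb14), with a median of 0.971. Among 7414 other genes averaging at least 20 CPM, the gene most like Asb2 over the 8 libraries was Pet112 (r = 0.9992), followed by Pdss2 and Clasp1 (0.9982 each). Asb11 was most like the calcium-binding gene Casq2 (0.9992), Trim63 most like Clip4 (0.9997), Fbxo32 most like Tcaim (0.9984), and Trim54 most like Pacsin3 (0.9988). Trim55 was most like Fbp2 (0.9982), Asb10 like Stard7 (0.9983), Asb14 like Lbh (0.9981), Asb15 like Kcnj11 (0.9974) and Asb18 like D2hgdh (0.9980). A high r means the same pattern and not the same size: Pet112 had a log2 fold change of -1.35 at 1 day and -1.79 at 3 days, against which Asb2 had -3.47 and -4.69. These points share libraries and depth. The 10 genes were also chosen with their MI values known, so a high r among them can follow from the choice. All values of r are given as a description.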

How the data were processed

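Total RNA-seq of 8 left ventricles was analysed from the deposited tables. Upstream tools named in the submitters' processing notes, without a role, were HTSeq, TopHat2 2.0.14, Bowtie2 2.2.5, SAMtools 0.1.2, FastQC and DESeq2, with mm10 as build. No source used here gives the annotation or the strand setting, so reads of overlapping genes cannot be told apart. The authors deposited raw counts per gene symbol, counts of unique reads per transcript (used beside transcript length and group means of total reads), and log2 fold changes of their own comparison (MI over sham at 1 day, sham over MI at 3 days), per the file headers. Counts were filtered (filterByExpr), scaled by TMM and fitted by group over all 8 libraries in edgeR 4.0.16 (R 4.3.3; robust quasi-likelihood, common dispersion 0.0602), with Benjamini-Hochberg adjustment over 15508 genes and a threshold of 0.05. CPM values use effective library sizes; SE is the size of the log2 fold change divided by the square root of F. Transcript usage was tested with diffSpliceDGE on 9130 transcripts. The tests were checked on simulated data for MI against sham at 1 day. The gene test recovered 20 of 96 genes changed 2-fold and 101 of 104 changed 4-fold, with 4 false calls. The usage test recovered 146 of 200 genes with a 4-fold change in 1 transcript, with 11 false calls. Most 2-fold changes were thus missed, so a missing call does not show an unchanged level.

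The members and lists were chosen with earlier results of these data known. From each list the called genes with the largest rise and fall among those averaging at least 5 CPM, and the most abundant gene, were named for each day; others are said to be chosen after their values were seen. One gene that this rule names is not reported here. Transcript usage between MI and sham was planned as a test and is given as a description, because that contrast chose the genes. Levels per length use gene counts and the longest deposited transcript in place of the planned deposited RPKM, and protein sequences were not compared. Promoter windows and gene positions are from RefSeq, GRCm38.p6. Alternatives were DESeq2 1.42.0 size factors or its test, library totals, no filter, limma-voom (limma 3.58.1), only the libraries of a day, and leaving out each library.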

Additional observations from a re-analysis of the deposited data

Results flagged for a closer look

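Among the pathway genes named, several had an MI effect that differed between 3 days and 1 day by the test of that difference itself (edgeR quasi-likelihood, 3 days minus 1 day, log2, Benjamini-Hochberg over all genes). Of 15508 genes tested, 3799 were called in this contrast, 2046 of them higher and 1753 lower. Most of the genes below were named for a large rise or fall at 1 or 3 days, which uses the same libraries. Their values here are thus a description and no independent support. Klhl41, Klhl40, Flnc and Asb4 were above sham at 1 day and below it at 3 days; the calls of Asb4 were lost without 5 of the 8 libraries in turn at 1 day and 6 at 3 days, and the 1-day call of Klhl40 without 7. The difference was -4.62 (SE 0.32, adjusted p = 0.000105) for Klhl41, -4.35 (SE 0.54, adjusted p = 0.00073) for Klhl40, -3.91 (SE 0.29, adjusted p = 0.000111) for Ckm, -3.88 (SE 0.50, adjusted p = 0.000824) for Ttn and -3.60 (SE 0.44, adjusted p = 0.000663) for Klhl38. It was -2.67 (SE 0.32, adjusted p = 0.000643) for Flnc, -2.58 (SE 0.60, adjusted p = 0.0133) for Asb12, -2.45 (SE 0.40, adjusted p = 0.00265) for Klf15 and -2.43 (SE 0.43, adjusted p = 0.00413) for Mt2. It was -2.09 (SE 0.48, adjusted p = 0.0123) for Asb4, -1.81 (SE 0.36, adjusted p = 0.00637) for Mybpc3, -1.41 (SE 0.23, adjusted p = 0.00288) for Asb8 and -1.20 (SE 0.35, adjusted p = 0.036) for Fbxl22. It was -1.10 (SE 0.26, adjusted p = 0.0135) for Cand2. It was positive, at 1.58 (SE 0.27, adjusted p = 0.00349) for Nedd8, 1.12 (SE 0.23, adjusted p = 0.00728) for Cops5, 1.22 (SE 0.31, adjusted p = 0.0205) for Asb3, 1.67 (SE 0.26, adjusted p = 0.00199) for Ctsl, 0.81 (SE 0.22, adjusted p = 0.0268) for Flna, 1.06 (SE 0.30, adjusted p = 0.0301) for Tceb1 and 1.32 (SE 0.42, adjusted p = 0.0455) for Uba6. Leaving out 1 of the 8 libraries in turn ended this call without 6 of them for Fbxl22 (adjusted p from 0.0905 to 0.199), Flna (0.0604 to 0.279) and Uba6 (0.0544 to 0.18), without 5 for Tceb1 (0.0613 to 0.204), without 4 for Asb3 (0.0611 to 0.146) and Cand2 (0.058 to 0.104) and without 3 for Asb4 (0.0591 to 0.0861). It ended it without 2 for Asb12 (0.0632 and 0.0641) and Cops5 (0.0928 and 0.0942), and without 1 for Mybpc3 (sham library B of 1 day, 0.0743) and Nedd8 (MI library A of 3 days, 0.0516). Without MI library A of 3 days the difference was -3.64 for Asb12 and -4.35 for Klhl38, without sham library B of 3 days -3.12 for Ttn, without MI library A of 1 day -3.66 for Klhl40 and 0.73 for Uba6, and without MI library B of 1 day 1.94 for Uba6. No cause of these differences was tested, and the 10 ligase genes were left out here because they were chosen on this contrast. Groups of 2 libraries allowed no search for single outlying samples.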

How the results depend on the processing

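No paired analysis was possible because the count columns carry no replicate numbers. The direction of every log2 fold change of the 10 genes between MI and sham held under all alternatives run. Their median at 1 day was -1.26 with library totals alone and -1.84 to -1.60 without 1 library in turn; at 3 days it was -4.24 with library totals, -4.73 with only the libraries of that day and -4.79 to -4.48 without 1 library, and for the difference between the days -3.05 to -2.56. Library totals moved the median of all genes at 1 day to 0.40 and at 3 days to 0.43, from 0.12 and 0.16, and the share of calls that were rises to 67.9% and 66.7%, from 49.5% and 57.2%. Leaving out 1 library gave 2688 to 9388 called genes at 1 day (6051 with all), 1575 to 5297 for the difference (3799), 4037 to 9428 for MI at 3 days against 1 day (7042) and 0 to 2 between the sham groups (0), where DESeq2 called 44; the low-count filter was rerun in each and 15574 to 17995 genes were tested; the cause of the changes was not tested. The internal-start share of Asb2 at 1 day was 33.3 percentage points higher in MI, 30.3 from the authors' group means of total reads, and 30.7 to 36 without 1 library; at 3 days it was 19.2, and 8.20 to 30.1 without 1 library. Relative to cardiomyocyte markers, Fbxo32 at 1 day was 0.00 without Ttn (-0.44 with it), an alternative chosen after seeing the data, as was the use of group means; the cause was not tested. By the authors' mean total reads per length Asb2 also came first in both sham groups. Deposited RPKM, protein identity and the replicate block were not run. The depth of the MI libraries limits Asb18 at 3 days and the Asb2 transcripts.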

Other observations

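The neddylation cycle, which switches cullin ligases on, was singled out after its values were seen. At 3 days Nedd8 had 163 and 139 CPM in MI libraries, against 75.6 and 64.3 CPM in sham libraries, and rose (log2 fold change 1.11, SE 0.19, edgeR adjusted p = 0.000809). Cops5, of the signalosome that removes Nedd8 from cullins, had 103 and 101 CPM in MI libraries, against 53.1 and 47.8 CPM in sham libraries (1.02, SE 0.16, edgeR adjusted p = 0.000447). The Nedd8-activating enzyme genes Uba3 (0.72, edgeR adjusted p = 0.0222) and Nae1 (0.56, 0.0216) lost their calls without either MI library of 3 days (0.337 and 0.156 for Uba3, 0.532 and 0.189 for Nae1). Dcun1d1, which helps Nedd8 onto cullins, had 0.55 (SE 0.23, edgeR adjusted p = 0.0687). Of the Nedd8-conjugating enzymes, Ube2m fell, with 36.4 and 42.2 CPM in MI libraries, against 75.5 and 69.4 CPM in sham libraries (-0.88, SE 0.27, edgeR adjusted p = 0.0211; lost without 5 of the 8 libraries in turn, 0.054 to 0.116), and Ube2f had 0.04 (SE 0.18, edgeR adjusted p = 0.854). At 1 day Ube2m fell too (-1.09, SE 0.28, edgeR adjusted p = 0.0139; -1.79 without MI library A; lost without sham library A or B, 0.105 and 0.0606). Nedd8, Cops5, Uba3, Nae1, Dcun1d1 and Ube2f were not called by edgeR at 1 day, but Ube2f was called higher with library totals (0.63, adjusted p = 0.027), and Nedd8 was called lower without MI library A (-0.72, edgeR adjusted p = 0.0153).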
